A study of Homo sapiens with 6 samples.

Results

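The integrin and laminin genes were taken as every probe whose gene name in the array files is an integrin alpha chain, one of the integrin beta chains or a laminin alpha, beta or gamma chain. These were 58 probes of 38 genes among 58201 probes under 43317 gene names, and 33 of the probes belonged to 26 integrin genes and 25 to 12 laminin genes. Their RNA was measured in BT474, a breast cancer line with ER and HER2 expression that derives from a primary tumor, on 6 one-color Agilent arrays, 2 for each of 3 groups. Control cells were transfected with an empty pcDNA3.1 vector. BT474-Var1 cells carried the long variant Var1 of the lncRNA NR2F1-AS1 in pcDNA3.1/Hygro(+), and BT474-Var4 cells carried the short variant Var4 in pcDNA3.1-P2A-eGFP. The methods name both empty plasmids as controls, and do not state which of them the Control arrays stand for. The 2 variant populations therefore differed in backbone and in eGFP as well as in the variant. Both were stable transfectants that grew out as colonies from the few cells left after selection, so each is a single selected population of 1 cell line. Nothing in the labels states that the 2 arrays of a group came from separate cultures, and p-values measure only the spread between these arrays.

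Integrins are receptors made of 1 alpha and 1 beta chain that span the plasma membrane, bind extracellular matrix or other cells outside, and connect to actin or keratin filaments inside. Laminins are trimers of 1 alpha, 1 beta and 1 gamma chain, and are the main adhesive proteins of basement membranes. In mammary epithelium the ITGA6 and ITGB4 pair sits in hemidesmosomes and binds an epithelial laminin with LAMA3 and LAMB3 chains, while ITGA3 and ITGA6 pair with ITGB1 to bind laminins at focal contacts. A chain can reach the cell surface only with a partner, and array signal measures RNA of each chain, not assembled receptor or secreted trimer.

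Levels are given as log2 of the background-subtracted intensity relative to the array's 75th percentile, so 0 is that percentile. A probe was tested if, in 1 group or more, the scanner software had marked both arrays as well above background. Tests are limma's moderated test on all 6 arrays, with Benjamini-Hochberg adjustment over the 31858 tested probes and a threshold of 0.05. A level of one probe cannot be set against that of another probe. Replicate arrays correlated across tested probes at r = 0.993 to 0.996, and 47.6% to 57.5% of probes were well above background per array. The transfected transcript followed the labels, since the NR2F1-AS1 probe A_19_P00320140 was above background in BT474-Var1 cells alone, at -0.42 and -0.51, and the probe A_24_P51080 lay at 1.67 and 1.50 in BT474-Var4 cells and at -6.05 and -6.35 in BT474-Var1 cells. All arrays lay on 1 slide, and the slide column of both BT474-Var1 arrays held no other array of the series, so column and Var1 cannot be told apart. All 6 luminal epithelial markers (KRT8, KRT18, KRT19, EPCAM, GATA3 and CDH1) were well above background on all 6 arrays.

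Of the 38 genes, 25 had a probe well above background on all 6 arrays, 4 more (ITGA10, ITGA2B, ITGAD and LAMC3) had one above background on both arrays of some group, 2 were above it on single arrays only, and 7 were above it on none. The 7 were ITGA1, a collagen receptor chain, ITGA4, a receptor chain for fibronectin and VCAM1 that had 3 probes, ITGA8, an RGD receptor chain, ITGAL, the alpha chain of the lymphocyte receptor LFA-1, ITGB3, the beta chain of the platelet and vitronectin receptors, and the laminin alpha chains LAMA1 and LAMA2. None of their probes passed background on any array. ITGB3 lay between -6.44 and -5.51, and its partner chains ITGAV and ITGA2B were both measured. ITGAX, an alpha chain of myeloid cells, was above background at -1.34 on BT474-Var4 B and at -3.82 on Control A with one probe, and at -1.26 on BT474-Var1 B with another. LAMB4, a laminin beta chain, was above background at -1.11 on Control A and -2.40 on BT474-Var4 A. In neither gene did both arrays of a group pass background, and neither was tested.

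**Figure D1:**
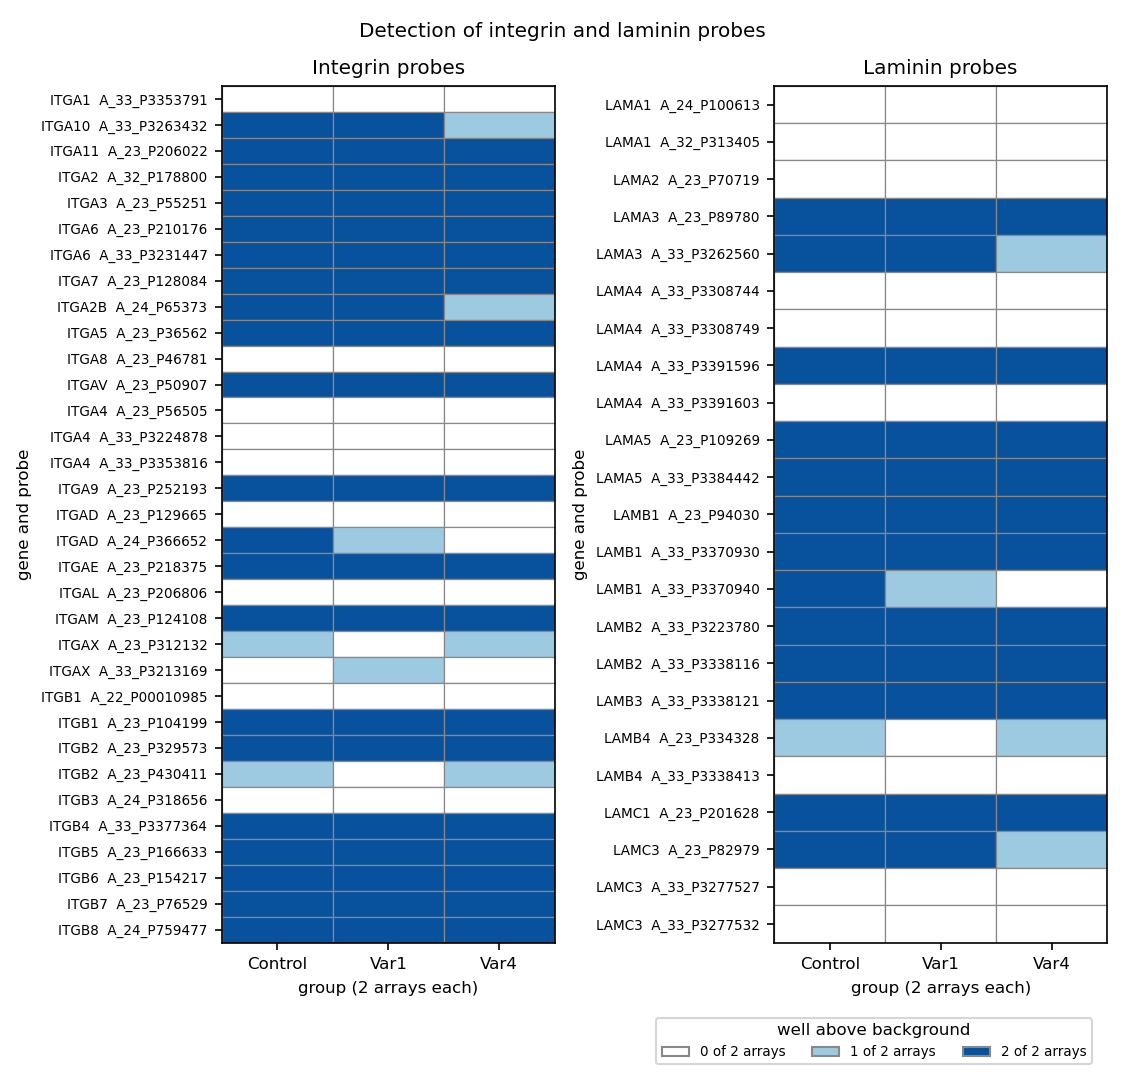
The 33 integrin probes (left) and 23 of the laminin probes (right) by gene, with the 3 groups across. White, light and dark cells stand for 0, 1 and 2 of a group's 2 arrays well above background. Of the 56 probes shown, 28 were dark in all 3 groups and 18 were white in all 3.

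Detection differed between probes of the same gene. ITGB1, the beta chain with the widest choice of partners, had one probe well above background on every array and one, A_22_P00010985, above background on none. LAMA4, the alpha chain of vessel and muscle laminins, had 1 of 4 probes above background, LAMC3 had 1 of 3, and ITGAD, a myeloid alpha chain, had 1 of 2, which was not above background on either BT474-Var4 array. Each probe reads its own stretch of 60 bases, and genes are described below by their brightest tested probe on average, with other probes named where they differ. That left 36 tested probes of 29 genes, 20 integrin and 9 laminin chains.

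In BT474-Var1 cells 13 of the 36 tested probes differed from Control, 3 higher and 10 lower, beside 34.4% of all tested probes (14.1% higher and 20.3% lower). With normexp, another background correction, 8 were higher and 12 lower. Laminin receptor and laminin chains were among those that fell: ITGA6, ITGB4, LAMB1, LAMB2 and LAMC1. The median change over the 29 genes was -0.06, beside -0.04 over all tested probes, and 2 genes changed by 2-fold or more, ITGA10 upward and ITGA6 downward, against 3.94% of all tested probes (2.78% upward and 1.16% downward). The count fell from 13 to 4 without Control A and to 7 without Control B, where 6.43% and 13.5% of all tested probes passed.

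In BT474-Var4 cells 15 of the 36 probes differed from Control, 12 higher and 3 lower, beside 24.2% of all tested probes (9.87% higher and 14.3% lower). They included ITGA3, 5 of 7 measured beta chains, all 3 measured laminin beta chains and the alpha chain LAMA3. The median change over the 29 genes was 0.16, beside -0.08 over all tested probes, and 4 genes rose by 2-fold or more, among them ITGB2, ITGB6 and ITGB8, against 1.6% of all tested probes (1.57% fell so far, 3.17% in all). The count rested on the number of arrays: it fell from 15 to 1 without Control A and to 1 without Control B, to 6 and 3 without BT474-Var4 A and B, and to 9 without BT474-Var1 A, and the share of all tested probes that passed was then between 1.9% and 12.7%.

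Set directly against each other, BT474-Var4 and BT474-Var1 cells differed at 20 of the 36 probes, 16 higher and 4 lower in BT474-Var4, beside 41.2% of all tested probes (20.4% higher and 20.8% lower), and with normexp 16 were higher and 7 lower. The median difference over the 29 genes was 0.35, beside -0.03 over all tested probes. At 2-fold or more 5 probes differed, 3 higher and 2 lower, beside 6.86% of all tested probes (2.27% higher and 4.6% lower). Leaving out 1 array at a time gave 14 to 19 probes. The comparisons of the 2 variants with Control share the Control arrays, so their likeness is not read as a result.

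**Figure D2:**
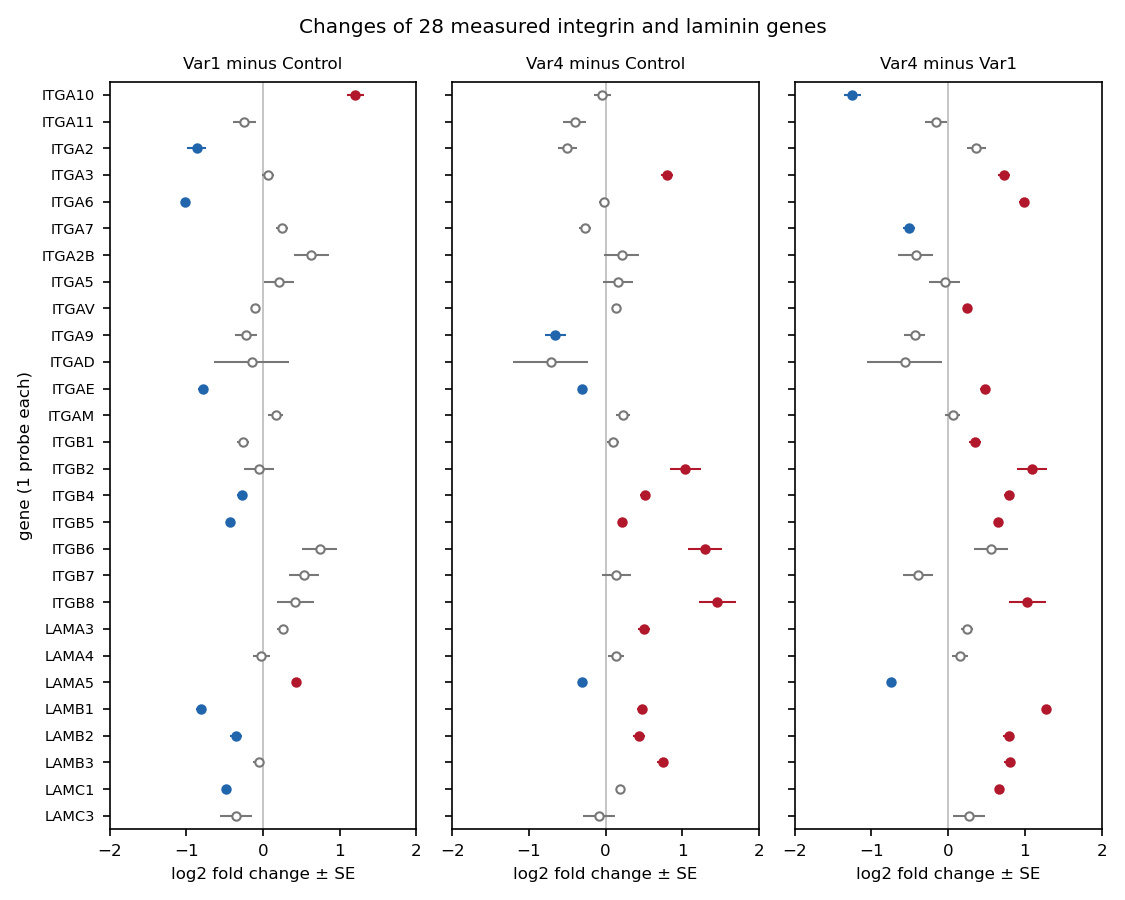
Log2 fold changes with their standard errors for 28 of the measured genes, 1 probe each, in the 3 comparisons of 2 arrays with 2. Red points were higher and blue points lower at an adjusted p under 0.05, and open points did not pass. In the panel of BT474-Var4 minus BT474-Var1, 13 genes are red and 3 are blue.

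Among the laminin-binding alpha chains, ITGA6 was lower in BT474-Var1 cells. Its probe A_23_P210176 read 1.17 and 1.24 in Control, 0.22 and 0.16 in BT474-Var1 and 1.19 and 1.17 in BT474-Var4 cells. The BT474-Var1 arrays lay apart from the other 4, and the other 2 groups overlapped. With 2 arrays a group, groups that do not overlap were common, at 71.8% (BT474-Var1 against Control), 68.6% (BT474-Var4 against Control) and 74.7% (between the variants) of tested probes with every value. The change was -1.01 ± 0.06 (log2, SE; limma adjusted p = 0.00305), or 2.02-fold lower than Control, and BT474-Var4 lay 0.98 ± 0.06 above BT474-Var1 (adjusted p = 0.00155). A second ITGA6 probe, A_33_P3231447, moved the same way, by -0.73 ± 0.07 (adjusted p = 0.00558), and missed the threshold without Control A.

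ITGA3, the other main laminin-binding alpha chain of epithelia, followed another pattern. It lay at 1.20 and 1.15 in Control, 1.18 and 1.30 in BT474-Var1 and 1.91 and 2.03 in BT474-Var4 cells. Both BT474-Var4 arrays were above the other 4. The rise over Control was 0.80 ± 0.08 (adjusted p = 0.00687), which was lost without either Control array, and the rise over BT474-Var1 was 0.73 ± 0.08 (adjusted p = 0.00411), which held without any single array. ITGA7, a laminin receptor chain known from muscle, passed only between the variants, where BT474-Var4 was lower by -0.51 ± 0.08 (adjusted p = 0.0103), a call lost without BT474-Var4 B or BT474-Var1 A.

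ITGB4, the hemidesmosomal partner of ITGA6, lay at 1.98 and 2.04 in Control, 1.79 and 1.68 in BT474-Var1 and 2.56 and 2.50 in BT474-Var4 cells. The 3 groups did not overlap. BT474-Var4 was above BT474-Var1 by 0.79 ± 0.07 (adjusted p = 0.00271), and this held without any single array. Against Control the chain was higher in BT474-Var4 by 0.52 ± 0.07 (adjusted p = 0.012) and lower in BT474-Var1 by -0.27 ± 0.07 (adjusted p = 0.0359), of which the first was lost without either array of either group and the second without any 1 of the 6 arrays. ITGB1 passed only between the variants, at 0.35 ± 0.08 higher in BT474-Var4 (adjusted p = 0.0262), a call lost without either array of either variant.

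The collagen-binding alpha chains moved apart from one another. ITGA10, known mainly from cartilage, read -3.52 and -3.26 in Control, -2.11 and -2.27 in BT474-Var1 and -3.40 and -3.46 in BT474-Var4 cells, where 1 of the 2 arrays was above background. BT474-Var1 was the high group, by 1.20 ± 0.11 over Control (2.3-fold, adjusted p = 0.00508), and BT474-Var4 was 1.25 lower than BT474-Var1 (-1.25 ± 0.11, adjusted p = 0.00313). Both calls held without any single array, and with normexp, whose offset shrinks changes of dim probes, the differences were 0.32 and -0.32. ITGA2, the epithelial collagen receptor chain, went the other way in BT474-Var1, from -2.22 and -2.34 in Control to -3.29 and -3.00, a change of -0.86 ± 0.12 (adjusted p = 0.0107) that was lost without Control A or B and was -0.15 with normexp. In BT474-Var4 it lay at -2.70 and -2.85, between the other groups, and the difference of -0.50 ± 0.12 from Control did not pass (adjusted p = 0.0515). ITGA11, a collagen receptor chain of fibroblasts, passed in no comparison, with changes of -0.40 to -0.16.

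The beta chains that pair with ITGAV, among them receptors that bind latent TGF-beta, included ITGB6 and ITGB8, which are among the 4 genes that rose 2-fold in BT474-Var4 cells. ITGB8, which binds latent TGF-beta with ITGAV, read -3.57 and -4.01 in Control, -3.18 and -3.55 in BT474-Var1 and -2.54 and -2.13 in BT474-Var4 cells. ITGB6, an epithelial chain that binds the same ligand, read -3.84 and -3.39 in Control, -2.73 and -3.04 in BT474-Var1 and -2.15 and -2.51 in BT474-Var4 cells. For both genes the BT474-Var4 arrays lay above the other 4 and the BT474-Var1 arrays above Control, for ITGB8 only by -3.55 against -3.57. In BT474-Var1 neither passed against Control, at 0.42 ± 0.24 for ITGB8 (adjusted p = 0.238) and 0.74 ± 0.22 for ITGB6 (adjusted p = 0.0651). The rise over Control in BT474-Var4 was 1.45 ± 0.24 for ITGB8 (2.74-fold, adjusted p = 0.0205) and 1.29 ± 0.22 for ITGB6 (2.45-fold, adjusted p = 0.0228). These were dim probes with a wide spread, and the calls were fragile: that of ITGB8 was lost without either Control or either BT474-Var4 array, and that of ITGB6 also without BT474-Var1 A and with the replicate block (adjusted p = 0.0540). Both calls were also lost with the methods' one-way analysis of variance and with no filter on dim probes. With normexp the rises were 0.28 for ITGB8 and 0.29 for ITGB6.

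The ITGB6 probe A_23_P154217 maps to the minus strand of hg19 at chr2:160958330-160964233, an interval of 5904 bases for a probe of 60, so it joins separate exons of the spliced RNA. Its sequence is given since the rise of ITGB6 rests on this probe.
ITGB6 A_23_P154217: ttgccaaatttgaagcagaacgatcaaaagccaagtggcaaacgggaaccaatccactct

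ITGB5, the vitronectin receptor chain of epithelial cells, read 3.05 and 3.02 in Control, 2.60 and 2.60 in BT474-Var1 and 3.23 and 3.27 in BT474-Var4 cells. The 3 groups did not overlap. It was lower in BT474-Var1 than in Control by -0.43 ± 0.05 (adjusted p = 0.00689, lost without Control A) and BT474-Var4 exceeded BT474-Var1 by 0.65 ± 0.05 (adjusted p = 0.00242, held without any single array), and its rise of 0.22 ± 0.05 over Control in BT474-Var4 (adjusted p = 0.0439) was lost without any 1 of the 6 arrays. ITGAV itself, read by 10 spots an array, varied little, between 2.41 and 2.67 over all arrays, and passed only between the variants (0.24 ± 0.05, adjusted p = 0.0193, a call lost without any 1 array). The fibronectin receptor chain ITGA5 and the platelet chain ITGA2B passed in no comparison, with changes of 0.16 and 0.21 in BT474-Var4 and 0.21 and 0.63 in BT474-Var1 cells.

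ITGB2, the beta chain of the leukocyte integrins, read -2.41 and -1.93 in Control, -2.23 and -2.23 in BT474-Var1 and -1.29 and -0.97 in BT474-Var4 cells with the probe A_23_P329573. A second ITGB2 probe, A_23_P430411, was above background on only 1 Control and 1 BT474-Var4 array and was not tested. It read -4.24 and -3.45 in Control and -3.49 and -3.85 in BT474-Var4 cells, which overlapped. With the first probe BT474-Var4 was higher than Control by 1.04 ± 0.20 (2.06-fold, adjusted p = 0.028) and higher than BT474-Var1 by 1.10 ± 0.20 (adjusted p = 0.0151). The first call was lost without any 1 of the 6 arrays and the second without BT474-Var4 B, BT474-Var1 A or BT474-Var1 B, and with normexp the differences were 0.36 and 0.34. Of its alpha partners, ITGAM, the alpha chain of a myeloid receptor for complement, passed in no comparison (0.17 and 0.22 against Control), ITGAD passed in none, and ITGAL and ITGAX were below background or on single arrays only. The leukocyte markers PTPRC, CD3E and CD14 were tested, and FCGR3A was above background on no array. None of the 3 passed in any comparison, and their summed level was 0.24 to 0.29 in Control, 0.32 to 0.33 in BT474-Var1 and 0.13 to 0.24 in BT474-Var4 cells.

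ITGAE, an alpha chain that pairs with ITGB7 and binds E-cadherin, was lower in both variants. It read 2.71 and 2.77 in Control, 1.93 and 1.99 in BT474-Var1 and 2.45 and 2.41 in BT474-Var4 cells. The groups did not overlap. The change was -0.79 ± 0.06 in BT474-Var1 (adjusted p = 0.00379, held without any single array) and -0.31 ± 0.06 in BT474-Var4 (adjusted p = 0.0249, lost without any 1 array), and the difference of 0.48 ± 0.06 between the variants passed (adjusted p = 0.00544). ITGB7 passed in no comparison (0.54 and 0.14). ITGA9, a receptor chain for tenascin-C and other ligands, was lower in BT474-Var4 by -0.66 ± 0.14 (adjusted p = 0.035), a call lost without any 1 array.

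**Figure D3:**
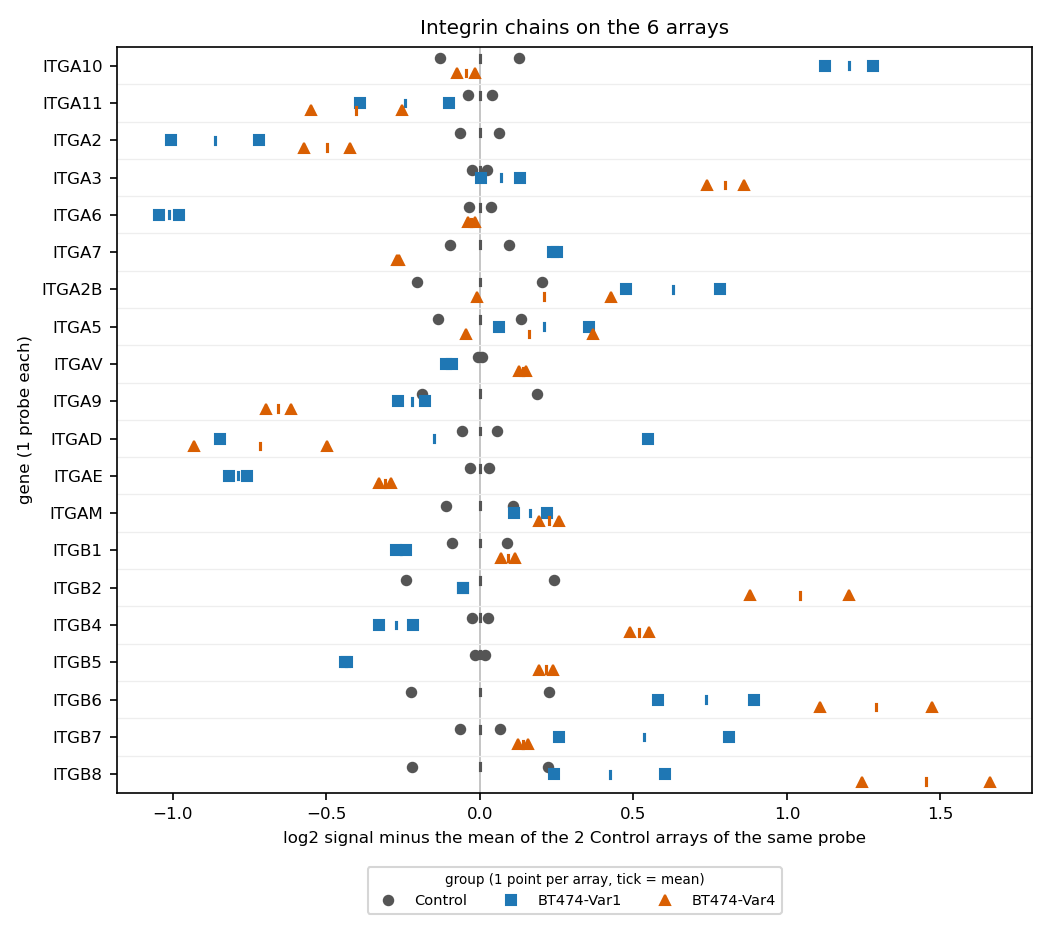
Levels of the 20 measured integrin chains on each array, as log2 signal minus the mean of the 2 Control arrays of the same probe, with a tick at each group's mean. ITGA6, ITGAE and ITGA2 show BT474-Var1 (squares) at the low end, ITGA10 shows it at the high end, and ITGA3, ITGB2, ITGB4, ITGB6 and ITGB8 show BT474-Var4 (triangles) at the high end.

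On the ligand side, the LAMA3 and LAMB3 chains of the epithelial laminin that ITGA3 and ITGA6 receptors bind were higher in BT474-Var4 cells. LAMB3, a beta chain, read -0.34 and -0.42 in Control, -0.47 and -0.40 in BT474-Var1 and 0.42 and 0.31 in BT474-Var4 cells. LAMA3, the alpha chain, read -1.97 and -1.81, then -1.65 and -1.63, then -1.44 and -1.36 in the same order. Both BT474-Var4 arrays were the highest of the 6 for each chain, and BT474-Var1 overlapped Control for LAMB3 but not for LAMA3.

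The rise over Control in BT474-Var4 was 0.74 ± 0.07 for LAMB3 (1.67-fold, adjusted p = 0.0066) and 0.50 ± 0.08 for LAMA3 (1.41-fold, adjusted p = 0.017). Both calls were lost without Control A or B, and that of LAMA3 also without either BT474-Var4 array or BT474-Var1 A. Between the variants LAMB3 passed (0.80 ± 0.07, adjusted p = 0.00289) and held without any single array, and LAMA3 did not pass (0.24 ± 0.08, adjusted p = 0.0614). In BT474-Var1 cells LAMB3 read -0.06 ± 0.07 (adjusted p = 0.556) and LAMA3 read 0.25 ± 0.08 (adjusted p = 0.0612).

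A second LAMA3 probe gave another reading. The probe A_33_P3262560, far upstream of the first, was dim and passed in no comparison, with changes of 0.54 ± 0.17 for BT474-Var1 and 0.14 ± 0.17 for BT474-Var4.

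The general basement membrane chains LAMB1, LAMB2 and LAMC1 were lower in BT474-Var1 than in either other group by their brightest probes. LAMB1, the beta chain of the most widespread laminins, read 4.01 and 4.07 in Control, 3.29 and 3.18 in BT474-Var1 and 4.52 and 4.51 in BT474-Var4 cells with the probe A_23_P94030. The groups did not overlap, and the spread within a group was small beside the distance between groups. The change was -0.81 ± 0.06 in BT474-Var1 (1.75-fold lower, adjusted p = 0.00413) and 0.47 ± 0.06 in BT474-Var4 (1.39-fold higher, adjusted p = 0.0134), and BT474-Var4 lay 1.28 ± 0.06 above BT474-Var1 (2.43-fold, adjusted p = 0.00128), the largest difference between the variants in this direction. The call in BT474-Var4 against Control was lost without either array of either group, and the other calls held without any single array.

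The other LAMB1 probes did not follow this one in BT474-Var4 cells, and only A_33_P3370930 was also lower in BT474-Var1. A_33_P3370930 read 1.29 and 1.41, 1.11 and 1.10, and 1.21 and 1.13, lower in BT474-Var1 by -0.24 ± 0.06 (adjusted p = 0.0453, lost without any 1 array) and not different between the variants (0.07 ± 0.06, adjusted p = 0.451). A_33_P3370940 was below background on both BT474-Var4 arrays and on 1 BT474-Var1 array. It read -3.83 and -2.63 in BT474-Var1 and -4.96 and -4.84 in BT474-Var4 cells. BT474-Var4 was lower than BT474-Var1 (adjusted p = 0.0336), and no bound on the fold is given since both groups held arrays below background. The call was lost without either Control or either BT474-Var4 array. It was also lost with quantile normalization, no filter on dim probes, the replicate block and the methods' one-way analysis of variance. On hg19 the first probe lies at chr7:107564411-107564470, and the others lie at chr7:107643398-107643457 and chr7:107599951-107600010, all read from the minus strand, so the first is the one nearest the 3' end of the gene. The sequence is that of the LAMB1 probe with the difference of 1.28.
LAMB1 A_23_P94030: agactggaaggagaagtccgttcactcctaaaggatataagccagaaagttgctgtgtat

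LAMB2, which replaces LAMB1 in other laminins, was higher in BT474-Var4 with both of its probes. A_33_P3338116 read 3.26 and 3.20 in Control, 2.88 and 2.86 in BT474-Var1 and 3.58 and 3.74 in BT474-Var4 cells, and A_33_P3223780 read 1.10 and 1.20, 1.15 and 1.20, and 1.70 and 1.89. The rise over BT474-Var1 was 0.79 ± 0.07 (adjusted p = 0.0033) and 0.62 ± 0.09 (adjusted p = 0.00794), and both held without any single array. Over Control it was 0.44 ± 0.07 (adjusted p = 0.0212) and 0.65 ± 0.09 (adjusted p = 0.0134), and both of these calls were lost without Control A, Control B or BT474-Var4 B, the first also without either BT474-Var1 array. The probes parted in BT474-Var1 against Control, where the first was lower by -0.35 ± 0.07 (adjusted p = 0.0251) and the second read 0.02 ± 0.09 (adjusted p = 0.858). The first of these was lost without either array of Control or BT474-Var1.

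LAMC1, the gamma chain of most laminins, read 1.63 and 1.70 in Control, 1.23 and 1.15 in BT474-Var1 and 1.88 and 1.84 in BT474-Var4 cells. It was lower in BT474-Var1 by -0.48 ± 0.06 (adjusted p = 0.00764, lost without Control A or B) and BT474-Var4 exceeded BT474-Var1 by 0.67 ± 0.06 (adjusted p = 0.00299, held without any single array). The rise of 0.19 ± 0.06 over Control in BT474-Var4 did not pass (adjusted p = 0.082). LAMA4 and LAMC3, the gamma chain of neural and other tissues, passed in no comparison, with changes of -0.02 and -0.35 in BT474-Var1 and 0.13 and -0.08 in BT474-Var4 cells.

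**Figure D4:**
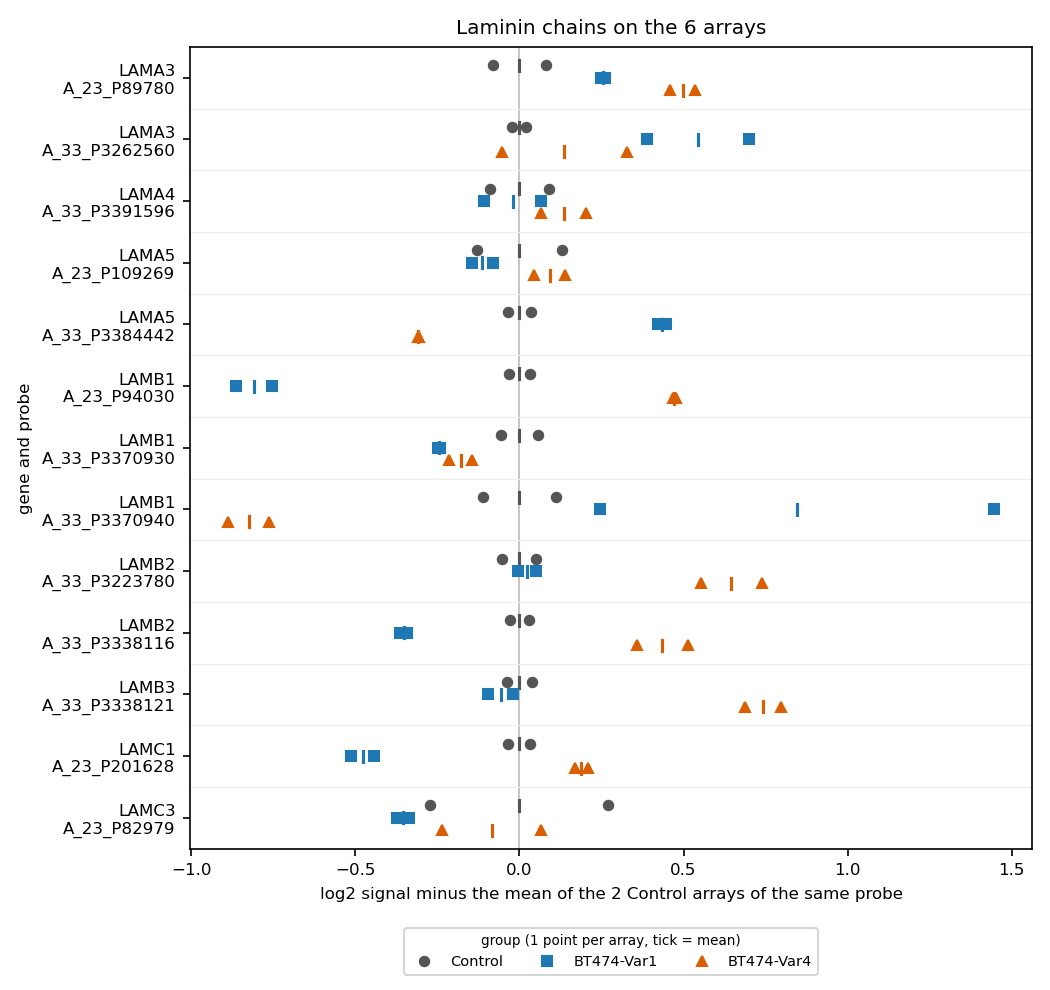
Levels of 13 tested laminin probes on each array, as log2 signal minus the mean of the 2 Control arrays of the same probe, with a tick at each group's mean. LAMB3, LAMB2 and the LAMB1 probe A_23_P94030 show BT474-Var4 (triangles) at the high end, and the LAMA5 probe A_33_P3384442 shows it at the low end.

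LAMA5, the alpha chain of the main laminins of adult epithelial basement membranes, had a pair of probes that moved differently. A_33_P3384442, at chr20:60920556-60920615 on hg19, read 8.36 and 8.43 in Control, 8.84 and 8.82 in BT474-Var1 and 8.09 and 8.09 in BT474-Var4 cells. It was higher in BT474-Var1 by 0.43 ± 0.05 (adjusted p = 0.00742, lost without Control A), lower in BT474-Var4 by -0.31 ± 0.05 (adjusted p = 0.0219, lost without any 1 array), and lower in BT474-Var4 than in BT474-Var1 by -0.74 ± 0.05 (adjusted p = 0.00209, held without any single array). A_23_P109269, at chr20:60885302-60885361, read -0.50 and -0.24, -0.51 and -0.45, and -0.32 and -0.23, and passed in no comparison (0.21 ± 0.10 between the variants, adjusted p = 0.182). Both are read from the minus strand, so the second lies nearer the 3' end of the gene.

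The sequences of the 2 LAMA5 probes also differed in kind, and are shown since the gene's reading depends on the choice between them. Over its whole 60 bases the second has 2 of its 3 reading frames free of stop codons, and the first, of which 30 bases are printed, has 0 over its whole 60. The first holds the run GGAGGCTGAGG, in capitals below within 30 of its 60 bases, which is a run known from the Alu repeats found in many transcripts.
LAMA5 A_33_P3384442, bases 21 to 50: agctactccGGAGGCTGAGGtggaaggatt
LAMA5 A_23_P109269: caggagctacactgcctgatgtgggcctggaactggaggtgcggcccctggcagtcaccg

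The run was searched in this orientation in all 58201 probe sequences and was found in 13 of them (0.0223%). It was chosen after the values were seen, so what follows is a description. Beside the LAMA5 probe, 10 of the 13 were tested, and they belong to other genes. All 10 changed by more than 0 in BT474-Var1 cells (0.00 to 0.72, median 0.53) and all 10 had BT474-Var4 below BT474-Var1 (-1.74 to -0.07, median -0.83). Of the 10, 6 passed as higher in BT474-Var1, 4 as lower in BT474-Var4 against Control and 7 as lower between the variants, beside 14.1%, 14.3% and 20.8% of all tested probes. Whether the LAMA5 probe reads LAMA5 RNA or other RNAs with the same run was not tested. No other probe of the integrin and laminin genes held it, and without this probe the counts were 12, 14 and 19 in the 3 comparisons.

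**Figure D5:**
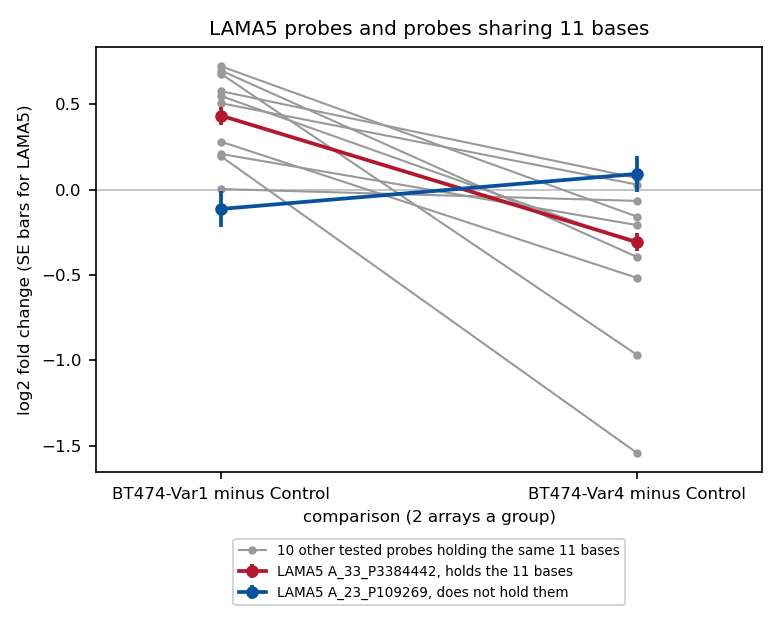
Log2 fold changes from Control in BT474-Var1 and BT474-Var4 cells for the 2 LAMA5 probes (with SE) and for the 10 other tested probes that share an 11-base run with the first, each line joining the 2 changes of a probe. The red LAMA5 probe goes from 0.43 to -0.31 among the gray lines, and the blue LAMA5 probe goes from -0.11 to 0.09.

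Among 63 partner genes of integrins and laminins, in 6 lists, 52 were tested. In BT474-Var1 cells 7 were higher and 23 lower, in BT474-Var4 cells 13 were higher and 9 lower, and between the variants 24 were higher and 6 lower in BT474-Var4. These are 57.7%, 42.3% and 57.7% of the tested partners, beside 34.4%, 24.2% and 41.2% of all tested probes. Each partner was read by its brightest tested probe, and those shares include dim probes. With only probes well above background on all 6 arrays tested, 43.4%, 32.6% and 48.4% of them passed. The 24 partners higher in BT474-Var4 include NID1, which was below background on every array of both variants, so that call is not read.

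Of the 10 tested basement membrane components and laminin receptors, 7 were lower in BT474-Var1 cells and 0 higher, with a median change of -0.34, beside 20.3% and 14.1% of all tested probes. The collagen IV chains COL4A1 (0.47 ± 0.16, adjusted p = 0.0815) and COL4A5 (0.31 ± 0.10, adjusted p = 0.0652) and the nidogen NID2 (-0.13 ± 0.30, adjusted p = 0.761) did not pass there. COL18A1, the source of endostatin, fell by -1.05 ± 0.06 (adjusted p = 0.00295), HSPG2, which encodes perlecan, by -0.76 ± 0.07 (adjusted p = 0.00475), and NID1, which links laminin to collagen IV, went below background on both BT474-Var1 arrays and was at least 1.53-fold lower (adjusted p = 0.00449). NID1 was below background on both BT474-Var4 arrays as well, at -4.05 and -4.35, and was tested only because Control was above it. Its fall from Control in BT474-Var4 did not pass (adjusted p = 0.0565). In BT474-Var4 cells 1 of the 10 rose and 1 fell, COL4A5 by 0.69 ± 0.10 (adjusted p = 0.0143) and AGRN by -0.26 ± 0.06 (adjusted p = 0.0457). Of all tested probes, 9.87% rose and 14.3% fell in BT474-Var4. NTN4, a laminin-related protein that interferes with laminin networks, was higher in BT474-Var4 by 1.87 ± 0.32 (3.66-fold, adjusted p = 0.0227). It led the list of laminin processing and network genes. Of 4 tested there, 2 rose in BT474-Var4 and 0 passed in BT474-Var1 cells, beside 9.87% and 34.4% of all tested probes. SSPN, the other that rose, belongs to the dystrophin complex and changed by 0.97 ± 0.09 (adjusted p = 0.0067).

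Of the other integrin ligands, 10 of 16 were tested, and FN1, which encodes fibronectin, SPP1, TNN, FBN1 and EDIL3 were above background on no array. TNC, tenascin-C and a ligand of ITGA9 receptors, read 0.43 and 0.68 in Control, -1.06 and -1.07 in BT474-Var1 and 0.55 and 0.62 in BT474-Var4 cells. BT474-Var1 was the low group, by -1.62 ± 0.10 (adjusted p = 0.00334), and Control and BT474-Var4 overlapped. ICAM1, the ligand of the ITGB2 receptors, was below background in Control and at least 2.63-fold higher in BT474-Var1 (adjusted p = 0.00477) and at least 2.95-fold higher in BT474-Var4 cells (adjusted p = 0.00548). ICAM1 was tested only because the variant arrays were above background, so its p-values are no separate support. CTGF, a matricellular ligand, was higher in BT474-Var4 by 1.42 ± 0.33 (adjusted p = 0.044), with 1 of the 2 Control arrays above background.

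On the cytoplasmic side, 20 of 21 activators and adaptors were tested. Of these, 3 rose and 8 fell in BT474-Var1, beside 14.1% and 20.3% of all tested probes. In BT474-Var4 cells 6 rose and 4 fell, beside 9.87% and 14.3%, and no change from Control in this list reached 2-fold. The largest difference between the variants in that list was TNS3, a tensin that links beta chains to actin, at 1.40 ± 0.08 higher in BT474-Var4 (adjusted p = 0.00157). FERMT2, a kindlin that activates integrins, rose in BT474-Var4 by 0.84 ± 0.06 (adjusted p = 0.0041) and read -0.11 ± 0.06 in BT474-Var1 (adjusted p = 0.192). Among the 5 kinases, LYN, a Src family kinase, fell by -0.79 ± 0.06 in BT474-Var1 (adjusted p = 0.00397) and rose by 0.76 ± 0.06 in BT474-Var4 (adjusted p = 0.00517). PTK2, which encodes FAK, fell by -0.32 ± 0.05 in BT474-Var1 (adjusted p = 0.0137) and did not pass in BT474-Var4 (-0.19 ± 0.05, adjusted p = 0.0599). PTK2B went the opposite way to LYN. Its changes from Control were 0.31 ± 0.07 (BT474-Var1, adjusted p = 0.0278) and -0.38 ± 0.07 (BT474-Var4, adjusted p = 0.0232). BT474-Var4 lay below BT474-Var1 for PTK2B (-0.70 ± 0.07, adjusted p = 0.00355). Against Control, 1 kinase was higher and 2 lower for BT474-Var1, and 1 was higher and 1 lower for BT474-Var4. The shares of all tested probes against Control are those given above. Between the variants, 2 kinases were higher and 1 lower in BT474-Var4, beside 20.4% and 20.8% of all tested probes. Of the hemidesmosome partners, DST, a plakin that anchors keratin there, fell in BT474-Var1 by -0.50 ± 0.06 (adjusted p = 0.00651) and rose in BT474-Var4 by 0.27 ± 0.06 (adjusted p = 0.0332), PLEC, which encodes plectin, rose in BT474-Var1 by 0.83 ± 0.10 (adjusted p = 0.00728), CD151 passed in no comparison, and COL17A1 was not tested.

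Markers known from other cell types also changed. All samples were 1 cell line, so these markers are not read as shares of those cell types. In bulk RNA, more cells with a transcript and more RNA per cell cannot be told apart. Of the 5 fibroblast markers, COL1A1 rose in both variants (0.34 ± 0.05 and 1.03 ± 0.05, adjusted p = 0.0116 and 0.00293) and DCN in BT474-Var4 exceeded Control at least 7.11-fold (adjusted p = 0.0125), PDGFRB passed in neither variant (-0.02 ± 0.12 and -0.32 ± 0.12, adjusted p = 0.908 and 0.129), and COL3A1 and LUM were above background on no array. DCN was tested only because the BT474-Var4 arrays were above background, so its p-value is no separate support. The summed fibroblast level was 1.62 to 1.65 in Control, 1.86 to 1.91 in BT474-Var1 and 2.45 to 2.50 in BT474-Var4 cells. Of the 5 basal epithelial markers, KRT14 exceeded Control in both variants, by at least 2.43-fold for BT474-Var1 (adjusted p = 0.00484) and at least 1.94-fold for BT474-Var4 (adjusted p = 0.0105), and KRT5 and ACTA2 were above background on no array. KRT14 was tested only because the variant arrays were above background, so its p-values are no separate support. MYLK, the other tested basal marker, passed in neither variant (-0.01 ± 0.12 and 0.24 ± 0.12, adjusted p = 0.974 and 0.2). The summed basal level was -1.36 to -1.34 in Control, -1.14 to -1.07 in BT474-Var1 and -1.08 to -0.89 in BT474-Var4 cells. Of the 4 endothelial markers, VWF fell in BT474-Var1 (-0.87 ± 0.09, adjusted p = 0.00577) and KDR was above background on no array. CDH5, the other tested endothelial marker, passed in neither variant (-0.27 ± 0.13 and -0.05 ± 0.13, adjusted p = 0.169 and 0.819). The summed endothelial level was 1.36 to 1.47 in Control, 0.58 to 0.81 in BT474-Var1 and 1.27 to 1.35 in BT474-Var4 cells. Among the luminal markers KRT8 and KRT19 rose and EPCAM and CDH1 fell in BT474-Var1, and none of the 6 passed in BT474-Var4 cells. The platelet markers passed in no comparison. The part of these markers in the integrin and laminin results was not tested.

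Over the 3 comparisons the 36 probes gave 48 calls. All 48 kept their direction when the processing was changed or an array was left out, but this was largely fixed in advance. The filters, replicate block, trend and robust estimation, one-way analysis of variance and fit of the compared groups alone cannot alter an estimate. Without an array, groups that do not overlap cannot change order. Of the 48 calls, 18 also stayed past the threshold wherever they were tested. Among these were the falls of ITGA6 (A_23_P210176), ITGAE and LAMB1 (A_23_P94030) and the rise of ITGA10 in BT474-Var1 cells, and differences between the variants in ITGA3, ITGA6 (A_23_P210176), ITGA10, ITGAE, ITGB4, ITGB5, LAMA5 (A_33_P3384442, with the Alu run), LAMB1 (A_23_P94030), LAMB2 with both probes, LAMB3 and LAMC1. The other LAMA5 and LAMB1 probes either did not pass between the variants or went the other way.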

How the data were processed

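Cy3-labeled RNA was measured on Agilent one-color arrays. Spots were quantified by the authors with Feature Extraction 11.5.1.1 (per the submitters' processing notes), and the deposited array files hold linear, background-subtracted intensities not normalized between arrays. The deposited table holds log2 values after the authors' GeneSpring shift to the 75th percentile, and differed from the values used here by a median of at most 0.00716 per array. Here log2 intensity less the 75th percentile over non-control probes was used, outlier-flagged spots (63 to 128 per array) were left out, and spots of a probe were averaged. Per-array flags decided detection. Where a group was below background on both arrays, folds are bounds against the dimmest probe above background. Group means were fitted with limma 3.58.1 (R 4.3.3) (3 residual and 1.53 prior degrees of freedom), a fit tested on simulated data. The methods' one-way analysis of variance was an alternative, with normexp (offset 50), quantile normalization, other filters, the deposited table, a replicate block, trend and robust estimation, only the groups compared, and each array left out. The members, lists and alternatives were chosen with earlier results of these data known. Each gene was named except 1 that is not reported here, which stays in the counts, per-array values were given for genes changing by 2-fold or more and for chains needed to describe a receptor pair or laminin trimer, and up to 3 partners per list and comparison. Coordinates are those of the files (hg19), and probes were not placed in exons or introns. The number of arrays limits the precision.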

Additional observations from a re-analysis of the deposited data

Results flagged for a closer look

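Genes were singled out where their brightest tested probe differed by 2-fold or more in the direct test of BT474-Var4 against BT474-Var1. LAMB1 (A_23_P94030) was higher in BT474-Var4 by 1.28 (adjusted p = 0.00128), ITGB2 by 1.10 (adjusted p = 0.0151) and ITGB8 by 1.03 (adjusted p = 0.0291), and ITGA10 was lower by -1.25 (adjusted p = 0.00313). In each, both BT474-Var4 arrays lay beyond both BT474-Var1 arrays, as did 74.7% of all tested probes with every value. The calls of LAMB1 and ITGA10 held under every alternative that tested them. That of ITGB2 was lost with the methods' one-way analysis of variance and with no filter on dim probes, and that of ITGB8 with both of these, with the replicate block and with normexp. With normexp the differences were 1.28 for LAMB1, 0.34 for ITGB2, 0.13 for ITGB8 and -0.32 for ITGA10. Without single arrays the call of ITGB8 was lost 4 times and that of ITGB2 3 times of 6, and those of LAMB1 and ITGA10 0 times. These LAMB1 results are those of A_23_P94030 alone. Of the other LAMB1 probes, A_33_P3370940 was dim and lower in BT474-Var4 (adjusted p = 0.0336), and A_33_P3370930 did not pass (adjusted p = 0.451). The second ITGB2 probe, A_23_P430411, was not tested.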

How the results depend on the processing

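Counts of integrin and laminin probes past the threshold, 13 in BT474-Var1 against Control, 15 in BT474-Var4 against Control and 20 between the variants, came to 4 to 14, 1 to 11 and 14 to 19 when an array was left out, and to 6, 1 and 13 without a filter on dim probes, which raised the number of probes tested. With normexp the first was 20, and with the replicate letter as a block the second was 9. The letters share only a number: deviations of same-lettered arrays correlated at -0.02 to 0.05, and the block gave 11 and 19 in the other comparisons. All other alternatives gave counts within 1.5 times. Of the 48 single calls, 48 held with the deposited table and 48 with trend and robust estimation. The replicate block and the methods' one-way analysis of variance each lost 11, quantile normalization 7, the groups compared alone 5, normexp 1 and no filter 29. Normexp left 0, 0 and 1 probes changed by 2-fold or more, against 2, 4 and 5, and its offset by construction shrinks the changes of dim probes. No call changed direction under any alternative run, of which only normexp, quantile normalization, the deposited table and left-out arrays could alter an estimate.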
